A study of Mus musculus with 73 samples.

Results

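The host genes Snhg1, Snhg3, Snhg5, Snhg6, Snhg8, Snhg12 and Gas5 were chosen by name, as spliced noncoding transcripts that carry small nucleolar RNAs (snoRNAs) in their introns. The choice was made with results in view: Snhg6 was selected on its variable wild-type level, its lower level in several knockouts and its strain bias. Its values in those comparisons are therefore a description with no test, and the question was whether the other host genes follow it. Of the 7 genes, 6 had a row among the 30546 genes of the deposited table. Gas5 was not analysed here. In the mm10 build, Snhg1 lies on chromosome 19 (8723487 to 8726326), Snhg3 and Snhg12 on chromosome 4 (132351933 to 132353686 and 132308678 to 132311024), Snhg5 on chromosome 9 (88521052 to 88522897), Snhg6 on chromosome 1 (9942025 to 9944118) and Snhg8 on chromosome 3 (123507552 to 123508336), and RefSeq annotates all 6 as long noncoding RNA genes.

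A snoRNA host gene is transcribed and spliced, the snoRNAs are trimmed out of the introns and guide the chemical modification or cleavage of ribosomal RNA, and the spliced exons are exported. Many host transcripts begin with a run of pyrimidines like those of ribosomal protein mRNAs, meet ribosomes on short reading frames and are removed by nonsense-mediated decay. The level of a host transcript therefore depends on transcription and on decay, and it need not follow the level of the snoRNAs. Snhg3 carries the U17 snoRNAs (Snora73a and Snora73b), which act in the early cleavage of ribosomal RNA. Snhg5 carries the U50 snoRNAs, Snhg1 a set of box C/D snoRNAs, Snhg6 the snoRNA Snord87, Snhg8 the snoRNA Snora24, and Snhg12 several, among them Snora61.

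RNA came from epiblast, which forms the embryo proper, and from extraembryonic ectoderm (ExE), a trophoblast tissue that contributes to the placenta, of single E6.5 mouse embryos. Wild-type BDF1xCAST embryos (mother first, 7 in each tissue) and all knockout embryos came from BDF1 oocytes injected with CAST sperm and grew in CD-1 females. For the knockouts, zygotes received Cas9 mRNA and guides to Dnmt1, the maintenance DNA methyltransferase (3 epiblast and 3 ExE libraries), Ehmt1 and Ehmt2 together, the histone H3 lysine 9 methyltransferases Glp and G9a (6 and 8), Rnf2, a ubiquitin ligase of Polycomb repressive complex 1 (6 and 5), or Eed, a core subunit of Polycomb repressive complex 2 (9 and 10). Wild-type CASTxBDF1 embryos (4 in each tissue) came from natural mating, so that cross direction and mode of fertilisation cannot be told apart. BDF1 is itself a hybrid of C57BL/6 and DBA, so its gametes differ from each other, and the table does not separate those 2 haplotypes. Every knockout embryo was edited on its own, and its edited alleles were not analysed here. Levels are given as CPM, the reads of a gene over sites that differ between BDF1 and CAST, divided by all such reads of the library and scaled to the usual common total. The BDF1 share is the percentage of those reads with the BDF1 base. No label gives a batch, and all knockouts of a tissue were compared with the same 7 wild-type libraries.

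Libraries held 1141414 to 17653087 reads, with the deepest in Rnf2 epiblast. The BDF1 base took 56.0% to 58.3% of all reads in the 12 groups. In epiblast libraries the summed level of 6 epiblast markers had a group median of 2754 to 5601 CPM, against 694 to 1305 CPM in ExE libraries. Of the targeted genes, Eed fell in both tissues (log2 fold change -4.24 and -4.79), and Dnmt1 fell in epiblast (-2.27), as did Rnf2 (-0.80). Ehmt1 and Ehmt2 fell in ExE (-1.04 and -2.04). Ehmt1 in G9a-Glp epiblast (-0.62, adjusted p = 0.263), Dnmt1 in Dnmt1 ExE (-0.95, adjusted p = 0.137) and Rnf2 in Rnf2 ExE (-0.43, adjusted p = 0.317) did not pass edgeR's quasi-likelihood test, and Ehmt2 was too low to be tested in epiblast. Results of those 3 groups are given as those of the libraries labelled with the knockout. In such bulk samples, fewer cells of a type and less RNA per cell cannot be told apart.

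The promoters are shown for the start of each transcript, since the pyrimidine run at the first base is what places host genes beside ribosomal protein genes. Sequences of 5 members came from the RefSeq promoter table (assembly GRCm38.p6), 40 bases before to 40 from the annotated start. Capitals mark an unbroken run of C and T from the annotated start, and TATAAA on the transcribed strand. Whether transcription begins at the annotated start in these tissues was not tested.
Snhg1, chr19:8723447-8723526, plus strand: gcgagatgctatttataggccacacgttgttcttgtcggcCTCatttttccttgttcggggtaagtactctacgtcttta
Snhg3, chr4:132353647-132353726, minus strand: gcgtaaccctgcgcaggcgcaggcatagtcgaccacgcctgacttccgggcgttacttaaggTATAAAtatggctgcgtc
Snhg5, chr9:88522858-88522937, minus strand: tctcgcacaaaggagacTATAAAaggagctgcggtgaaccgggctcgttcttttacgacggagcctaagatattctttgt
Snhg8, chr3:123508297-123508376, minus strand: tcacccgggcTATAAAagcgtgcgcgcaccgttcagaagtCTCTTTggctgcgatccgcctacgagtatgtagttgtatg
Snhg12, chr4:132308638-132308717, plus strand: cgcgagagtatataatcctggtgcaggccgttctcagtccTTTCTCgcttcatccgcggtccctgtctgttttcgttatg
The annotated start was a C in Snhg1 and Snhg8, a T in Snhg12 and a G in Snhg3 and Snhg5. The run was 6 bases long in Snhg8 and Snhg12 and 3 in Snhg1. Of 32851 RefSeq promoters, 16.3% start with C, and 2.50% start with C and have a run of at least 5. TATAAA lay 30 bases before the start of Snhg8, 23 before that of Snhg5, and 22 after that of Snhg3. Searched on both strands of 300 bases (250 before and 50 after the start), TATAAA occurs in 13.6% of all promoters, and Snhg1 had it once on the other strand. CACGTG, found in 7.15% of promoters, was in none of the 5. The 300 bases held 16 to 36 CG pairs in the 5 members, against a median of 7 in all promoters.

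Snhg6 was variable in the wild type, most of all in BDF1xCAST embryos, and Snhg5 varied little in 3 of the 4 wild-type groups. In the 7 wild-type BDF1xCAST epiblasts (embryos 1, 2, 3, 4, 6, 7 and 8) Snhg6 had 77.6, 19.5, 30.6, 65.8, 117, 66.4 and 261 CPM. The matching ExE libraries had 44.5, 16.5, 19.2, 47.7, 83.7, 59.9 and 144 CPM. Embryos 2 and 3 were low and embryo 8 was high in both tissues. The coefficient of variation (SD over mean) was 89.4% in epiblast and 73.9% in ExE, where counting error alone would give 7.33% and 7.63%. That was above 98.2% and 99.2% of the genes with a mean of at least 10 CPM. In the 4 CASTxBDF1 embryos it was 31.7% and 30.9%, above 70.0% and 77.2% of genes. Snhg5 had a coefficient of 12.6% in BDF1xCAST epiblast, 11.2% in BDF1xCAST ExE and 9.86% in CASTxBDF1 epiblast, above only 8.26%, 6.57% and 7.82% of genes, but 25.8% in CASTxBDF1 ExE, above 66.5%. In the BDF1xCAST embryos, Snhg3 (25.0% and 33.8% in epiblast and ExE), Snhg8 (33.7% and 30.5%) and Snhg12 (37.9% and 24.7%) lay above 43.2% to 73.2% of genes, and the median gene had 27.5% and 25.2%. Snhg1, at 37.3% in epiblast, had only 12 to 49 reads in each library, for which counting error alone gives 19.3%. In the CASTxBDF1 embryos Snhg12 was the most variable of the host genes in epiblast (51.2%, above 92.8% of genes). In their ExE, Snhg3 (34.6%), Snhg8 (35.3%) and Snhg12 (31.9%) exceeded Snhg6 and lay above 79.1% to 84.1% of genes. Snhg1 was under 10 CPM there, and these coefficients rest on 4 embryos each.

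**Figure D1:**
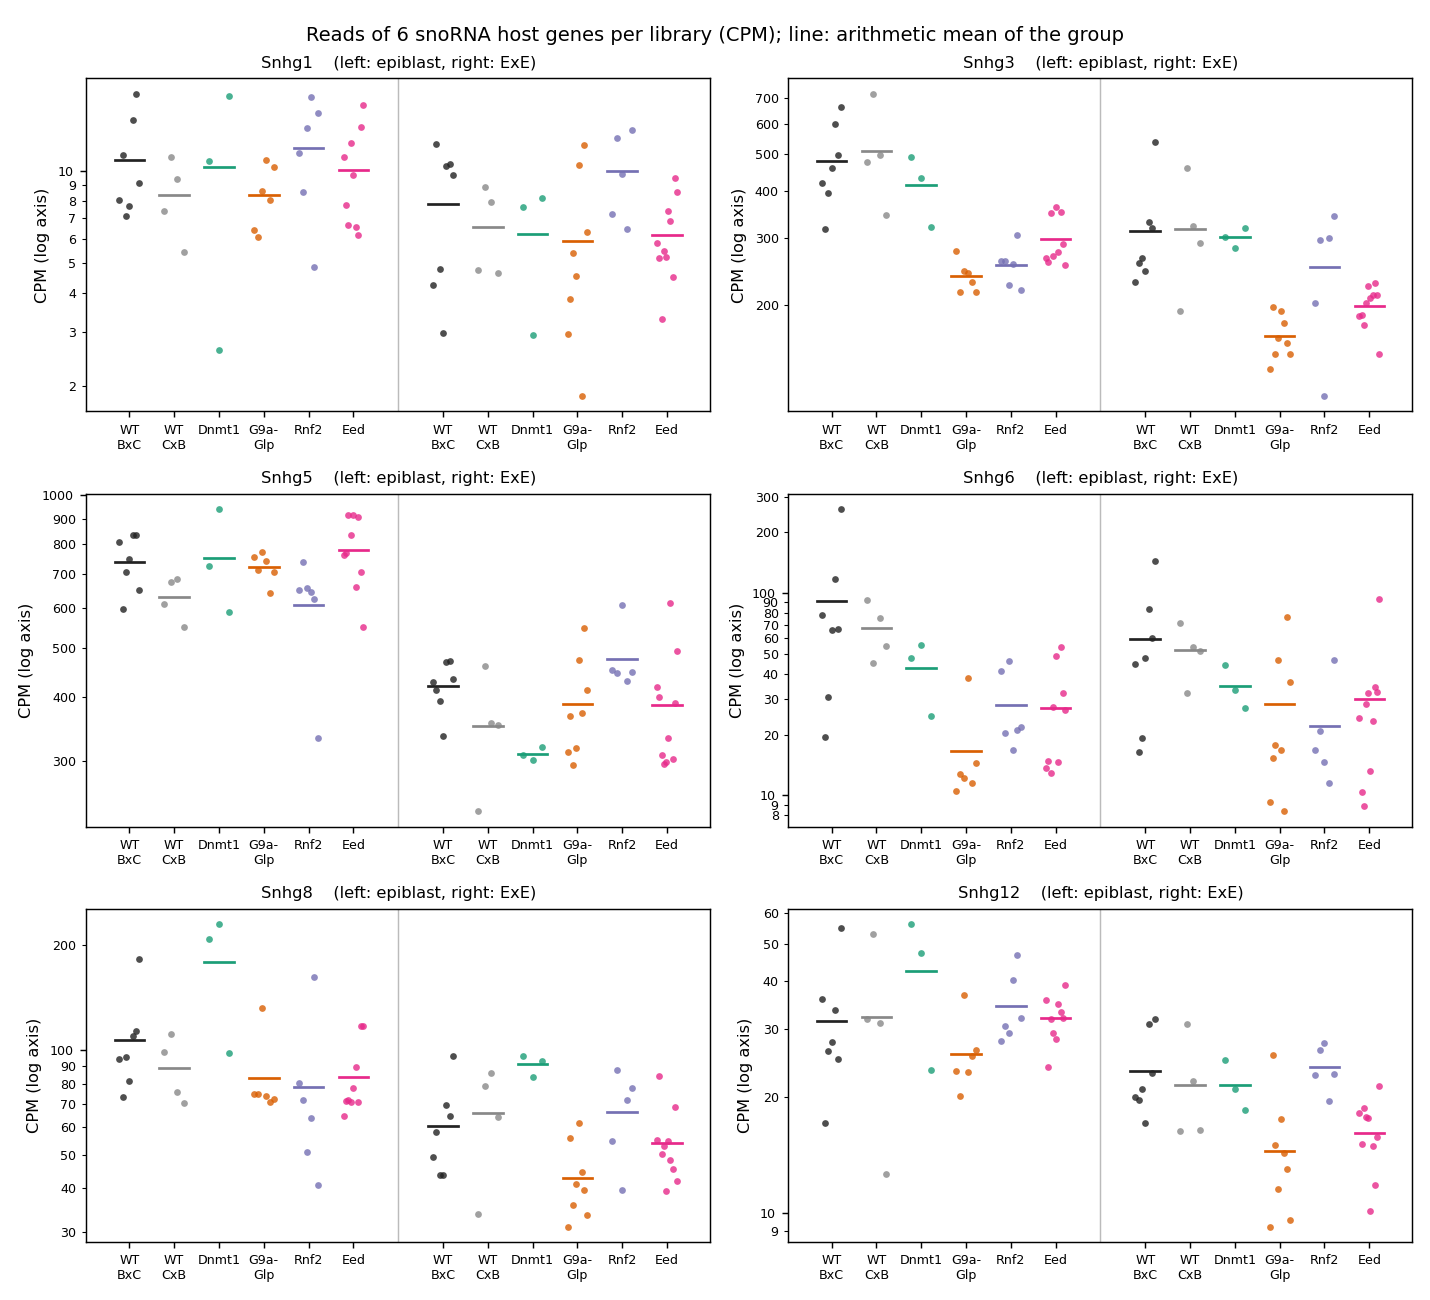
CPM of each member (log axis) in every library, with the epiblast groups on the left and the ExE groups on the right of each panel (WT, wild type; BxC, BDF1xCAST; CxB, CASTxBDF1); lines are group means. Snhg3 sits at 216 to 363 CPM in the G9a-Glp, Rnf2 and Eed epiblasts against 316 to 662 in wild-type BDF1xCAST, while Snhg6 spreads from 19.5 to 261 CPM within that wild-type group.

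In the knockouts, which chose Snhg6, its mean was 42.6 ± 15.8 CPM in Dnmt1 epiblast (SD, n = 3), 16.6 ± 10.5 in the epiblasts labelled G9a-Glp (n = 6), 27.9 ± 12.5 in Rnf2 (n = 6) and 27.2 ± 15.6 in Eed (n = 9), against 91.3 ± 81.6 in wild-type BDF1xCAST (n = 7). The ranges overlapped in every case, since the wild-type embryos 2 and 3 had 19.5 and 30.6 CPM. The log2 fold changes were -1.25, -2.48, -1.67 and -1.84 in that order. In ExE they were -1.06, -1.11, -1.49 and -1.10. Without the wild-type epiblasts 6 and 8, an alternative added after the data were seen, the epiblast values were -0.54, -1.74, -0.97 and -1.09. The BDF1 allele covered the wider range. The BDF1 allele of Snhg6 gave 10.6 to 212 CPM over the wild-type BDF1xCAST epiblasts and the CAST allele 8.92 to 49.6 CPM. In ExE the ranges were 9.32 to 120 CPM and 5.24 to 23.6 CPM.

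The BDF1 share of Snhg6 tended to be high or low in both tissues of an embryo. In epiblast of wild-type BDF1xCAST embryos 1, 2, 3, 4, 6, 7 and 8 it was 83.2%, 54.2%, 57.5%, 78.5%, 77.1%, 83.6% and 81.0%. In their ExE it was 88.2%, 56.5%, 57.1%, 88.3%, 87.6%, 89.6% and 83.6%. Embryos 2 and 3, with the lowest CPM of Snhg6, had the shares nearest to 50% in both tissues. Of the 31 embryos of all groups with both tissues, 11 were below 70% in both, 18 were above 70% in both and 2 were split. Tissues were joined by the embryo label, which goes against the number in the library titles for 3 Eed embryos (8, 9 and 10). Without those 3, the counts were 11, 15 and 2 of 28. The mark of 70% was set after the values were seen, so these counts describe and do not test. Libraries held as few as 18 reads of Snhg6 in G9a-Glp ExE, 21 in G9a-Glp and Eed epiblast and 22 in Eed ExE. Shares close to the mark are therefore uncertain. Shares below the mark occurred in wild-type, G9a-Glp, Rnf2 and Eed embryos and in none of the 3 Dnmt1 embryos. Eed epiblast, for example, ranged from 55.6% to 88.8% and Rnf2 epiblast from 51.0% to 86.2%. Snhg6 overlaps the row of Mcmdc2, so reads of the pair may be shared.

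**Figure D2:**
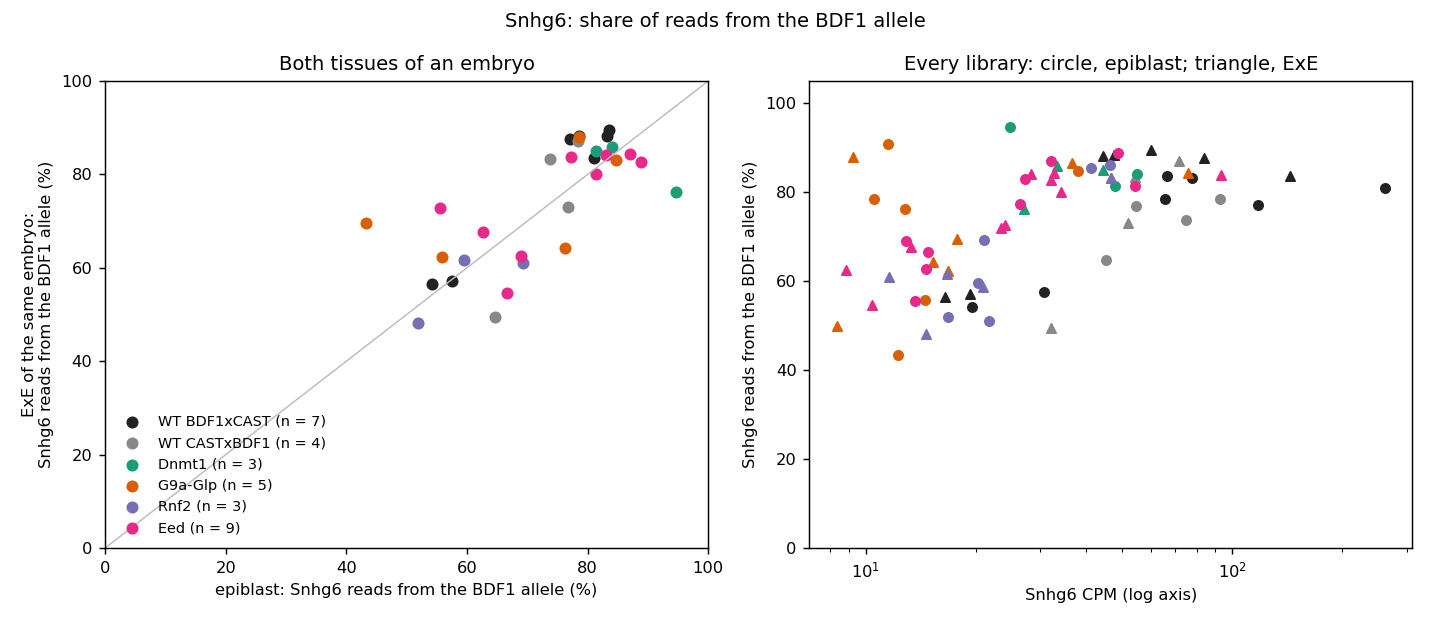
Left, BDF1 share of Snhg6 in ExE (%) against epiblast (%) of the same embryo for 31 embryos, with the line of equality; right, BDF1 share (%) against CPM (log axis) in all 72 libraries. Of the 31 embryos, 18 lie above 70% and 11 below 70% in both tissues, and none of the 27 libraries with a share under 70% is above 45.4 CPM.

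Among the tested host genes, Snhg3 was called lower in the most knockout comparisons. In wild-type BDF1xCAST epiblasts it had 418, 316, 395, 460, 599, 497 and 662 CPM (embryos 1, 2, 3, 4, 6, 7 and 8; mean 478 ± 120, SD, n = 7). The 6 epiblasts labelled G9a-Glp had 216 to 278 CPM with a median of 237, and the 6 Rnf2 epiblasts had 219 to 305 CPM with a median of 259. Both groups lay below every wild-type library. The 9 Eed epiblasts had 255 to 363 CPM with a median of 275, and 3 of them, at 349, 352 and 363 CPM, were above the lowest wild-type embryo. The 3 Dnmt1 epiblasts, at 489, 431 and 321 CPM, lay inside the wild-type range. By edgeR's quasi-likelihood test, the log2 fold change was -1.07 (SE 0.16, adjusted p = 6.51e-05) with the G9a-Glp label, -0.92 (SE 0.15, adjusted p = 0.000312) in Rnf2 and -0.86 (SE 0.14, adjusted p = 0.000133) in Eed. In Dnmt1 it was -0.41 (SE 0.21, adjusted p = 0.230). The tests are adjusted over all genes of a comparison. In epiblast 34.6% of all genes passed with the G9a-Glp label, 31.1% in Rnf2, 36.9% in Eed and 13.9% in Dnmt1, so a call by itself sets no gene apart.

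In ExE, Snhg3 had 230, 258, 267, 246, 331, 318 and 537 CPM in the wild-type BDF1xCAST embryos in the same order. All 8 G9a-Glp libraries, at 136 to 198 CPM, and all 10 Eed libraries, at 149 to 229 CPM, were below the lowest of them. Snhg3 fell by 1.00 on the log2 scale in G9a-Glp ExE (SE 0.19, edgeR adjusted p = 0.00103) and by 0.84 in Eed ExE (SE 0.17, edgeR adjusted p = 0.000523). The 5 ExE libraries labelled Rnf2 had 203, 297, 115, 300 and 343 CPM and overlapped the wild type, with a log2 fold change of -0.39 (SE 0.27, edgeR adjusted p = 0.314). The 3 ExE libraries labelled Dnmt1, at 303, 284 and 319 CPM, lay within the wild-type range (-0.33, edgeR adjusted p = 0.443). Of all genes, 15.1% passed in G9a-Glp ExE, 40.8% in Eed ExE, 22.2% with the Rnf2 label and 18.5% with the Dnmt1 label. The Snhg3 row overlaps those of Snora73b and Snora73a, whose reads may be shared with it. Snhg12 lies 40.9 kb from it on chromosome 4.

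Markers of other cell types differed between the groups, also in groups where Snhg3 was not called. The summed level of the 4 primitive streak and mesoderm markers (T, Mixl1, Mesp1 and Lefty2), none of them at 0 throughout an epiblast group, was 11.6 to 1182 CPM in the wild-type epiblasts with a median of 432. Medians were 78.5 CPM with the G9a-Glp label (range 19.7 to 195), 54.7 in Rnf2 (33.4 to 191), 109 in Eed (75.0 to 446) and 513 in Dnmt1 (73.8 to 752). Within the wild type, embryos 8 and 6 had the most streak markers and the most Snhg3. The wild-type embryos 2, 3 and 4, with 11.6, 74.6 and 54.5 CPM of streak markers, had 316, 395 and 460 CPM of Snhg3. Without embryos 6 and 8, an alternative added after the data were seen, the log2 fold change of Snhg3 was -0.92, -0.80 and -0.67 in G9a-Glp, Rnf2 and Eed (edgeR adjusted p = 1.96e-05, 0.000203 and 0.000637).
Markers of visceral endoderm, which the dissection removes, summed to a median of 9.25 CPM in the wild-type epiblasts (11 markers, range 5.03 to 629) against 118 with the G9a-Glp label (11.3 to 398), 26.8 in Rnf2 (16.0 to 122) and 33.8 in Eed (24.9 to 68.6). In Dnmt1 epiblast, where Snhg3 was not called, the median was 53.4 CPM (50.3 to 274). In ExE the visceral endoderm medians were 20.4 CPM in the wild type, 57.4 in G9a-Glp and 49.3 in Eed. They were 40.05 with the Rnf2 label and 42.7 with the Dnmt1 label, where Snhg3 was not called. In ExE, the 2 of 4 giant cell and ectoplacental cone markers with a row summed to a median of 68.0 CPM in the wild type (15.0 to 220), 107 in G9a-Glp (7.46 to 293) and 261 in Eed (130 to 365), with Prl3d1 at 0 in all 3 groups. With the Rnf2 label that median was 281 CPM (133 to 535) and with the Dnmt1 label 81.3 (67.2 to 119). The part of streak, visceral endoderm and giant cell markers in the Snhg3 result was not tested.

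**Figure D3:**
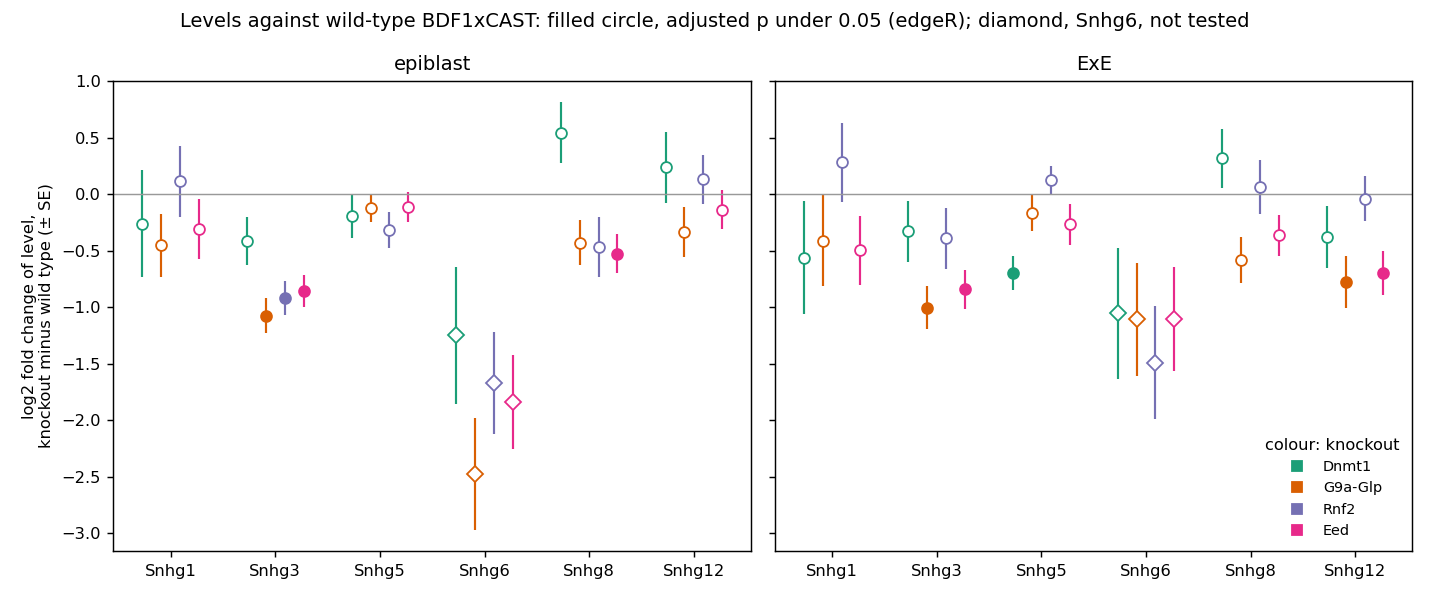
Log2 fold change of level against wild-type BDF1xCAST (± SE, from edgeR) for each member and knockout, in epiblast (left) and ExE (right); filled circles passed the adjusted threshold of 0.05 and diamonds mark Snhg6, which was not tested. Snhg3 passed in 5 of the 8 comparisons and Snhg12 in 2, with values from -0.70 to -1.07, and Snhg8 (-0.53) and Snhg5 (-0.70) passed in 1 each.

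Snhg12 fell in ExE of G9a-Glp and Eed embryos. Its wild-type BDF1xCAST ExE level was 19.98, 19.7, 21.0, 17.1, 31.0, 23.0 and 31.8 CPM (mean 23.4 ± 5.8). The 8 G9a-Glp libraries had 9.24 to 25.7 CPM with a median of 13.7, and the 10 Eed libraries had 10.2 to 21.3 CPM with a median of 16.7, and both ranges overlapped the wild type. The log2 fold change was -0.78 in G9a-Glp (SE 0.23, edgeR adjusted p = 0.0274) and -0.70 in Eed (SE 0.20, edgeR adjusted p = 0.00706). The call in G9a-Glp was lost without wild-type embryo 8 (-0.64, edgeR adjusted p = 0.0672) and without G9a-Glp embryo 1 or 10 (edgeR adjusted p = 0.0504 and 0.0502). Libraries held only 25 to 93 reads of Snhg12 in these 3 groups. In epiblast it had 17.2 to 54.9 CPM in the wild type, and its log2 fold changes ran from -0.34 with the G9a-Glp label to 0.24 in Dnmt1, with no adjusted p below 0.262 in edgeR. Its row overlaps that of Snora61.

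Snhg8 fell in Eed epiblast, a call that was lost without 1 control embryo. The wild-type BDF1xCAST epiblasts had 94.4, 73.0, 95.2, 81.5, 110, 113 and 182 CPM, and the Eed epiblasts had 64.5 to 118 CPM with a median of 71.9. The groups overlapped, with 6 of 9 Eed libraries below 80 CPM. The log2 fold change was -0.53 (SE 0.17, edgeR adjusted p = 0.0209), and without wild-type embryo 8 it was -0.36 (edgeR adjusted p = 0.0568). It did not pass either with the library total as the only scaling (-0.35, edgeR adjusted p = 0.142) or with all groups in 1 fit (-0.51, edgeR adjusted p = 0.0649). In the epiblasts labelled G9a-Glp, 5 of 6 libraries had 71.0 to 74.9 CPM and 1 had 132, with a log2 fold change of -0.43 (SE 0.20, edgeR adjusted p = 0.101). In G9a-Glp ExE it was -0.58 (SE 0.21, edgeR adjusted p = 0.0603), close to the threshold. It passed there with DESeq2 (-0.59, adjusted p = 0.0380), with no genes filtered out (edgeR adjusted p = 0.0459), with sex as a covariate (-0.66, edgeR adjusted p = 0.0202) and with all groups in 1 fit (-0.62, edgeR adjusted p = 0.0173). It also passed without any 1 of wild-type embryos 1, 3 and 4 and G9a-Glp embryo 7 (edgeR adjusted p = 0.0308 to 0.0466), and without wild-type embryo 8 it was -0.39 (edgeR adjusted p = 0.162). In Dnmt1 epiblast the value was positive. The 3 libraries had 208, 230 and 98.0 CPM of Snhg8 and a log2 fold change of 0.54 (SE 0.27, edgeR adjusted p = 0.207). That difference passed without wild-type embryo 8 (0.67, edgeR adjusted p = 0.0435).

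Snhg5, the most abundant of the 6 by reads, passed in 1 of the 8 comparisons of levels. The wild-type BDF1xCAST epiblasts had 597 to 835 CPM (mean 740 ± 93), the epiblasts labelled G9a-Glp 641 to 773, Eed 550 to 916 and Dnmt1 589 to 941. In Rnf2 epiblast 5 libraries had 624 to 739 CPM and 1 had 332. The 4 log2 fold changes in epiblast ran from -0.32 (Rnf2, SE 0.16, edgeR adjusted p = 0.142) to -0.11 (Eed, SE 0.13). In ExE, Snhg5 had 308, 301 and 319 CPM in the 3 libraries labelled Dnmt1, all below the wild-type values of 429, 413, 393, 335, 470, 473 and 435 CPM. It fell there by 0.70 on the log2 scale (SE 0.15, edgeR adjusted p = 0.00704), and by 0.45 with the library total as the only scaling (edgeR adjusted p = 0.0368). The other 3 ExE values were -0.17 (G9a-Glp), 0.12 (libraries labelled Rnf2) and -0.27 (Eed), with edgeR adjusted p values of 0.493, 0.528 and 0.237.

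Snhg1 was the least abundant by reads, at 7.13 to 17.8 CPM in wild-type BDF1xCAST epiblast and 2.98 to 12.2 CPM in ExE, and passed in no comparison of levels. Its 8 log2 fold changes ran from -0.56 to 0.28 with SEs of 0.27 to 0.50. Counted over the 5 tested host genes, calls were 0 in Dnmt1 epiblast, 1 with the G9a-Glp label, 1 in Rnf2 and 2 in Eed epiblast, and 1 with the Dnmt1 label, 2 in G9a-Glp, 0 with the Rnf2 label and 2 in Eed ExE, all of them lower. Of all genes, 13.9%, 34.6%, 31.1% and 36.9% passed in either direction in epiblast, in the same order. In ExE 18.5%, 15.1%, 22.2% and 40.8% did. Apart from G9a-Glp ExE, the counts of host genes were near or below these shares. Of all genes, 7.02%, 15.0%, 12.8% and 18.9% fell in epiblast, and 9.96%, 6.42%, 9.99% and 18.1% fell in ExE. Every count above 0 exceeded the share of falls, but each rests on 1 or 2 of 5 genes. Where edgeR called 0 members, DESeq2 also called 0, and 0 had an unadjusted p under 0.05. Median log2 fold changes of the 5 were -0.20, -0.43, -0.32 and -0.31 in epiblast and -0.38, -0.58, 0.06 and -0.50 in ExE, in the same order, against medians of all tested genes between -0.03 and 0.02. All 5 were below 0 in the G9a-Glp and Eed groups of both tissues, with exceptions in Eed epiblast. There, with the library total as the only scaling, Snhg5 was at 0.08 and Snhg12 at 0.05, and Snhg12 was at 0.03 without wild-type embryo 8 and at 0.09 without wild-type embryos 6 and 8. Scaling by the library total also put Snhg5 in Dnmt1 epiblast at 0.02 and Snhg12 with the Rnf2 label in ExE at 0.02. These comparisons share their controls within a tissue.

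The difference of a knockout's effect between the tissues was tested after the values of both tissues had been seen. The fit, here and for the share below, had no term for the embryo, although many embryos gave both tissues. With the embryo as a block, 364 levels of all genes passed for Rnf2, against 774 without. In edgeR, 0 of the 5 host genes passed for any knockout, while 0.282% of all genes passed for Dnmt1, 6.83% for G9a-Glp, 6.82% for Rnf2 and 15.9% for Eed. Unadjusted p values under 0.05 occurred for 1 host gene in Dnmt1 (Snhg5, ExE minus epiblast -0.50) and 1 in Eed (Snhg12, -0.55, edgeR adjusted p = 0.157). The fall of Snhg3 with the Rnf2 label, -0.92 in epiblast and -0.39 in ExE, differed by 0.52 (SE 0.31, edgeR adjusted p = 0.366), so the tissues were not shown to differ.

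The BDF1 share of Snhg5 was called higher in the epiblasts of 3 knockouts, in which its level did not pass the test. Its log2 difference was above 0 in every knockout comparison of both tissues, and all knockouts of a tissue shared 7 wild-type libraries. In wild-type BDF1xCAST epiblasts the CAST allele gave more reads, with BDF1 shares of 40.1%, 38.5%, 42.2%, 39.8%, 41.1%, 37.9% and 41.8%. The epiblasts labelled G9a-Glp had 46.1%, 52.9%, 49.9%, 47.9%, 53.6% and 52.0%, and the Rnf2 epiblasts had 47.7%, 47.9%, 51.8%, 50.3%, 51.7% and 54.7%. The 9 Eed epiblasts ranged from 46.1% to 56.6% with a median of 50.7%. All 21 libraries of these 3 groups were above all 7 wild-type libraries. On the log2 scale of the BDF1 to CAST ratio the difference was 0.60 (SE 0.08, edgeR adjusted p = 3.52e-05) with the G9a-Glp label, 0.61 (SE 0.07, edgeR adjusted p = 0.000226) in Rnf2 and 0.61 (SE 0.07, edgeR adjusted p = 9.61e-06) in Eed. Of all genes, 1.79%, 0.696% and 1.06% passed in these 3 comparisons. The Dnmt1 epiblasts, at 44.9%, 41.2% and 50.7%, overlapped the wild type (0.31, SE 0.11, edgeR unadjusted p = 0.00718, adjusted p = 0.265), in a comparison where 0.908% of genes passed. Snhg5 had 854 to 11481 reads in each epiblast library, and its row overlaps no other.

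The levels of the 2 alleles of Snhg5 were as follows. From wild type to G9a-Glp, Rnf2 and Eed epiblast, the BDF1 allele went from 297 ± 37 CPM to 363 ± 17, 305 ± 62 and 394 ± 57 CPM. The CAST allele went from 443 ± 59 CPM to 359 ± 41, 302 ± 80 and 386 ± 76 CPM. The CAST mean was lower in all 3 and the BDF1 mean was higher in G9a-Glp and Eed, and these allele levels were not tested one by one. The 4 wild-type CASTxBDF1 epiblasts, in which the CAST allele is maternal, had BDF1 shares of 46.3%, 43.0%, 43.0% and 40.9%, overlapping both the wild-type BDF1xCAST and the knockout libraries.

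In ExE the wild-type BDF1xCAST shares of Snhg5 were 39.4%, 40.3%, 42.0%, 36.7%, 36.0%, 40.1% and 38.3%. G9a-Glp libraries ranged from 41.4% to 49.3% (median 46.2%) and Eed libraries from 40.3% to 52.6% (median 45.4%), overlapping the wild type at the low end. The difference on the log2 scale was 0.37 (SE 0.08, edgeR adjusted p = 0.0155) in G9a-Glp and 0.41 (SE 0.09, edgeR adjusted p = 0.0106) in Eed, where 1.10% and 2.65% of genes passed. Neither passed with limma on log ratios (adjusted p = 0.137 and 0.0855). With the Rnf2 label, shares of 38.4% to 45.0% gave 0.20 (SE 0.08, edgeR adjusted p = 0.313), and with the Dnmt1 label 45.5%, 46.7% and 43.0% gave 0.36 (SE 0.10, edgeR adjusted p = 0.130), with 0.922% and 0.856% of all genes called. Neither passed, although the unadjusted edgeR p values were 0.0163 and 0.00193. The libraries labelled Dnmt1 all lay above the highest wild-type ExE library. The difference of the Rnf2 effect between ExE and epiblast was -0.41 (SE 0.11, unadjusted p = 0.000765, edgeR adjusted p = 0.127) and did not pass. For the share, 0 of the tested host genes passed this difference for any knockout in edgeR, with unadjusted p under 0.05 for 1 each in G9a-Glp, Rnf2 and Eed and 0 in Dnmt1. Of all genes, 0.311%, 0.274% and 0.865% passed in the first 3, and 0 of 6405 in Dnmt1.

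**Figure D4:**
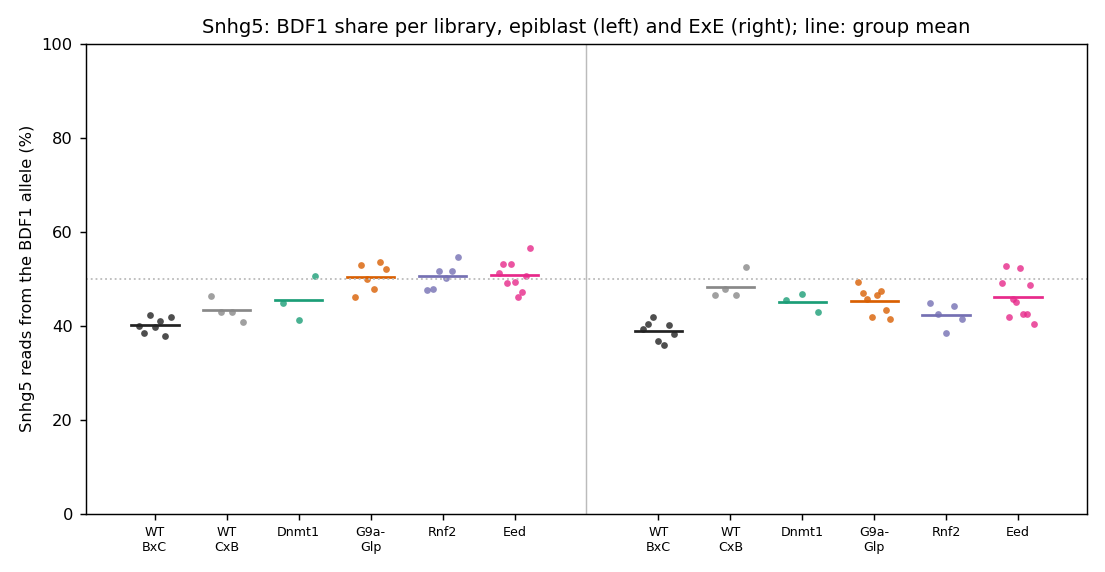
Percentage of Snhg5 reads from the BDF1 allele in every library (points) with group means (lines), epiblast on the left and ExE on the right; the dotted line marks 50%. The G9a-Glp, Rnf2 and Eed epiblasts lie at 46.1% to 56.6%, above all 7 wild-type BDF1xCAST epiblasts at 37.9% to 42.2%.

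The other tested host genes showed no called change of allelic share in a knockout. Snhg3, close to balance with 47.5% to 55.8% BDF1 reads in wild-type BDF1xCAST epiblast, gave log2 differences of -0.24 to 0.20 over the 8 comparisons, with SEs of 0.08 to 0.13. Snhg8 gave -0.16 to 0.18 with SEs of 0.14 to 0.24. The intervals for Snhg12 and Snhg1 are wider, with SEs of 0.25 to 0.48 and of 0.52 to 0.77, and shares of a single library rest on as few as 25 and 10 reads. Snhg1 had too few reads to be tested in either Dnmt1 comparison. In the epiblasts labelled G9a-Glp, where the Snhg3 level fell, 48.9% to 54.7% of its reads were from BDF1. Snhg6 differed by -0.45 to 0.83 in epiblast and by -1.31 to -0.04 in ExE on the same scale, given as a description.

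Strain differed in 4 of the 5 other host genes. Over the reciprocal wild-type crosses, the BDF1 allele of Snhg1 exceeded the CAST allele by 2.02 on the log2 scale in epiblast (SE 0.30, edgeR adjusted p = 1.25e-05) and by 2.82 in ExE (SE 0.40, edgeR adjusted p = 6.60e-06). Pooled over libraries, 84.0% of Snhg1 reads in BDF1xCAST epiblast and 78.2% in CASTxBDF1 epiblast were BDF1. Snhg8 leaned to BDF1 by 0.49 (SE 0.11, edgeR adjusted p = 0.000832) and 0.55 (SE 0.09, edgeR adjusted p = 3.02e-05). Snhg5 leaned to CAST by 0.48 in epiblast and 0.37 in ExE (log2 values of -0.48 and -0.37, edgeR adjusted p = 4.12e-09 and 1.27e-06). Snhg3 leaned to CAST in ExE alone among the called values (-0.32, SE 0.07, edgeR adjusted p = 0.00101), with -0.04 in epiblast (SE 0.08). Snhg12 was not called in either tissue (0.15 and 0.37). Strain terms passed for 42.9% of all genes in epiblast and 49.1% in ExE, with medians of 0.22 in both, so reads leaned to BDF1 in general. Snhg6 had 1.60 and 1.94, as a description. Its share and that of Snhg1 were on the same side, while that of Snhg5 was on the other.

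In CASTxBDF1 embryo 2, both host genes of chromosome 4 leaned to CAST. Snhg3 had 37.3% BDF1 reads in epiblast and 33.4% in ExE against 51.4% to 54.2% and 45.9% to 46.9% in the other 3 embryos. Snhg12 had 39.6% and 33.0% against 47.4% to 68.6% and 58.2% to 66.7%. That epiblast also had 3005 CPM of visceral endoderm markers, against 6.15 to 66.8 CPM in the other 3, and the part of those cells was not tested. Without the ExE library of this embryo, the strain term of Snhg12 in ExE passed (0.62, edgeR adjusted p = 0.00483).

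No level passed in the comparison of the reciprocal crosses. Between CASTxBDF1 and BDF1xCAST, 0 of the 5 host genes passed in either tissue in edgeR or in DESeq2, and 0 had an unadjusted p under 0.05. Of all genes 0.0103% passed in epiblast and 1.06% in ExE. The log2 fold changes ran from -0.33 to 0.15, with SEs of 0.15 to 0.41. The parent term was called for 1 host gene. The crosses also differed in mode of fertilisation, so the term cannot be told apart from that difference. In ExE, Snhg5 gave fewer reads from the maternal than from the paternal allele (log2 -0.28, SE 0.05, edgeR adjusted p = 0.00155), with BDF1 shares of 46.5% to 52.5% where BDF1 was the father and 36.0% to 42.0% where it was the mother. The call did not pass with limma on log ratios (adjusted p = 0.112). In epiblast the term was -0.09 (SE 0.04, edgeR adjusted p = 0.962), and 0 of 5 passed, with 1 unadjusted p under 0.05. Parent terms passed for 0.319% of all genes in epiblast and 0.844% in ExE.

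Between the tissues of wild-type BDF1xCAST embryos, all 6 host genes could be tested. Snhg5 was lower in ExE, with 335 to 473 CPM against 597 to 835 CPM in epiblast, and the ranges did not overlap (log2 fold change -0.78, SE 0.13, edgeR adjusted p = 7.17e-05). Snhg8 (-0.74, SE 0.22, edgeR adjusted p = 0.00698) and Snhg3 (-0.54, SE 0.21, edgeR adjusted p = 0.0342) were also lower. Snhg3 did not pass without any 1 of 8 of the 14 libraries (wild-type epiblast embryos 6, 7 and 8 and ExE embryos 1, 2, 3, 4 and 7), with values from -0.44 to -0.55. Snhg6 (-0.49, SE 0.50), Snhg1 (-0.42, SE 0.34) and Snhg12 (-0.36, SE 0.23) did not pass, in a comparison where 56.7% of all genes did. The tissues came from the same embryos, and with the embryo as a block Snhg6 passed as well (-0.43, edgeR adjusted p = 0.0184), which makes 4 of 6. Allelic shares did not differ between the tissues for any of the 6 in edgeR or in limma, with 1 unadjusted p under 0.05 (Snhg3, -0.20, edgeR adjusted p = 0.256). Of all genes 6.37% passed.

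Within groups, some host genes varied together. Deviations of log2(CPM + 1) from the group mean were correlated over the libraries of a tissue, for 15 pairs in each of 2 tissues (30 relations, permutation within groups, two-sided). In the 35 epiblast libraries, 5 pairs passed, all positive. Snhg3 and Snhg12 had Pearson r = 0.72 (permutation adjusted p = 0.003; Spearman rho = 0.50, adjusted p = 0.0479; r = 0.59 without the 2 farthest libraries). Snhg8 and Snhg12 had r = 0.66 (permutation adjusted p = 0.00075; rho = 0.56, adjusted p = 0.0126; r = 0.61 without those 2). Snhg3 and Snhg8 had r = 0.56 (permutation adjusted p = 0.00318; rho = 0.58, adjusted p = 0.0106; r = 0.47 without). Snhg3 and Snhg5 had r = 0.49 (permutation adjusted p = 0.0082; rho = 0.58, adjusted p = 0.0106; r = 0.62 without). Snhg3 and Snhg6 had r = 0.49 (permutation adjusted p = 0.0384; r = 0.52 without), and their rho of 0.38 did not pass (permutation adjusted p = 0.127). That was the only pair with Snhg6 to pass.
In the 37 ExE libraries, 2 pairs passed. They were Snhg3 and Snhg8 (r = 0.76, permutation adjusted p = 0.0006; rho = 0.75, adjusted p = 0.0006; r = 0.71 without the 2 farthest) and Snhg1 and Snhg5 (r = 0.54, permutation adjusted p = 0.003; rho = 0.56, adjusted p = 0.00585; r = 0.59 without). Snhg3 and Snhg12 had r = 0.31 there, and 0.10 without the 2 farthest libraries. The median r was 0.24 in epiblast and 0.28 in ExE. The share of pairs that pass among all genes was not computed, so these counts do not set host genes apart.

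**Figure D5:**
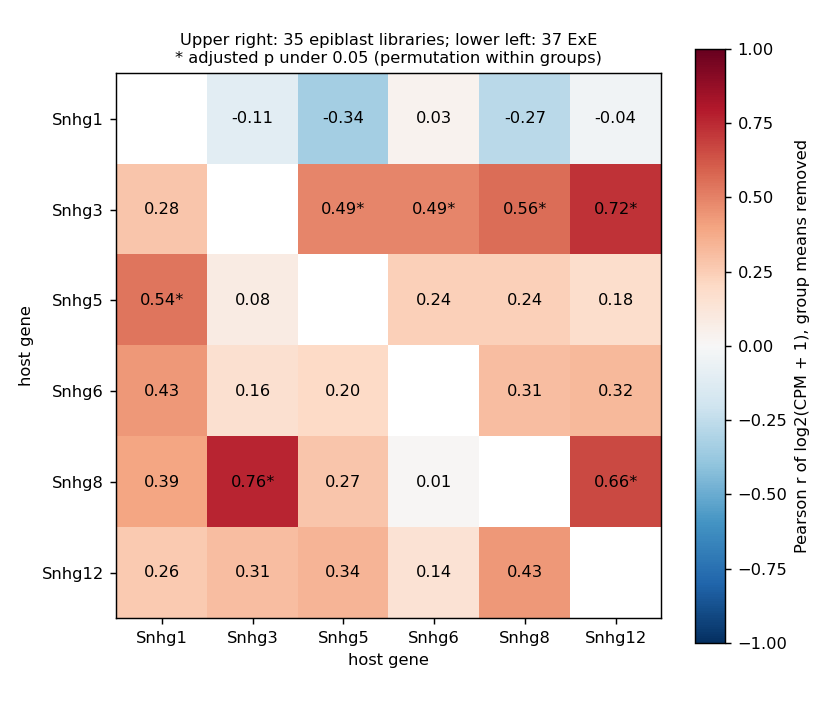
Pearson r of log2(CPM + 1), with group means removed, for each pair of host genes, with 35 epiblast libraries in the upper right and 37 ExE libraries in the lower left; stars mark an adjusted p under 0.05 by permutation within groups. The 5 starred epiblast pairs join Snhg3 with Snhg5, Snhg6, Snhg8 and Snhg12, and Snhg8 with Snhg12.

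Across the tissues of an embryo, 5 host genes gave 10 relations of level and share. The level of Snhg1 was correlated over 31 embryos (r = 0.72, permutation adjusted p = 0.0001; rho = 0.77, adjusted p = 0.0001; r = 0.69 without the 2 farthest). Its unadjusted p of 1e-05 is the smallest that 100000 permutations can give. Without the 3 Eed embryos whose labels differ, an alternative added after the data were seen, it was r = 0.69 over 28 embryos (permutation adjusted p = 0.0007; rho = 0.72, adjusted p = 0.0012). The level of Snhg3 had r = 0.49 (permutation adjusted p = 0.0915), and the other 8 relations did not pass either. The same correlation was not computed for all genes. Snhg6 was left out, since its share over both tissues is described above.

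The genes most like each host gene over all 72 libraries were taken from 7704 genes with a mean of at least 10 CPM, by r of the same deviations. For Snhg3 they were 5730408K05Rik and Mir5136, whose rows overlap each other on chromosome 19, and Snhg9, another host gene (r = 0.76, 0.75 and 0.74). For Snhg8 they were 1110038B12Rik (0.80), Zfas1, also a host gene (0.69), and the ribosomal protein gene Rpl36 (0.68). For Snhg12 they were 2410006H16Rik (0.72), the ribosomal protein gene Rplp1 (0.72) and 1110038B12Rik (0.72). Snhg9 and Zfas1 are marked since they are in the list of other host genes below. Whether the genes with Rik names carry snoRNAs was not examined. Snhg5 was most like Ndufaf4, Ppih and Lsm8 (0.73, 0.72 and 0.70), Snhg6 like Tmem258, Rpa3 and Cox6c (0.62, 0.61 and 0.59), and Snhg1 like Mrpl49, Tmem14a and AA465934 (0.51, 0.46 and 0.44). Snhg3 ranked 11th for Snhg8 and Snhg8 13th for Snhg3, both with r = 0.65. The best other member ranked 107th for Snhg1, 158th for Snhg12, 497th for Snhg6 and 998th for Snhg5.

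A list of 14 other noncoding snoRNA host genes, 12 of them tested, was set beside the members. With the G9a-Glp label in epiblast 7 fell and 0 rose (median log2 fold change -0.82), in Rnf2 4 fell and 1 rose (-0.38), in Eed 7 fell and 2 rose (-0.54), and in Dnmt1 2 fell and 1 rose (-0.01). Of all genes in these comparisons 15.0%, 12.8%, 18.9% and 7.02% fell. In ExE, 6 fell in G9a-Glp (median -0.58), 4 fell and 1 rose in Eed (-0.43), 2 fell with the Dnmt1 label (-0.44), and 0 fell and 1 rose with the Rnf2 label (-0.21). Of all genes 6.42%, 18.1%, 9.96% and 9.99% fell. Snhg10 fell by 1.80 on the log2 scale and Snhg9 by 1.43 in the epiblasts labelled G9a-Glp (edgeR adjusted p = 4.90e-05 and 0.0164). In Eed epiblast Snhg9 fell by 1.60 and Snhg10 by 1.49, whereas Snhg17 rose by 0.71. Snhg4 fell by 1.10 in Rnf2 epiblast. Snhg14, the long imprinted host transcript of the Prader-Willi region, was expressed from the father (parent term -7.92 in epiblast, edgeR adjusted p = 6.85e-14). It moved toward the maternal BDF1 allele in Dnmt1 epiblast (7.61, edgeR adjusted p = 1.70e-09). Of the 4 members tested for the share in that comparison, 0 were called, where 0.908% of all genes were. Their log2 differences ran from -0.24 (Snhg3) to 0.31 (Snhg5). In the tissue comparison 7 of 12 were lower in ExE and 0 higher, where 28.4% of all genes were lower and 28.3% higher.

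Genes that bear on host transcripts were counted in the same way. Their rises stand beside those of all genes, of which 19.6% rose with the G9a-Glp label, 18.3% in Rnf2, 18% in Eed and 6.92% in Dnmt1 epiblast, and 8.73% in G9a-Glp, 12.2% with the Rnf2 label, 22.7% in Eed and 8.54% with the Dnmt1 label in ExE. Their falls stand beside the shares of all genes given above. Of 30 tested translation genes that start with a pyrimidine run, as ribosomal protein genes do, 5 fell and 5 rose with the G9a-Glp label in epiblast (median -0.05), 2 fell and 8 rose in Rnf2 (0.14), and 7 fell and 5 rose in Eed (-0.09). The 5 of 30 each way with the G9a-Glp label are near the share of all genes. Rpl5 fell by 0.81, 0.89 and 0.70 on the log2 scale there, and Eef2, an elongation factor, rose by 3.02 with the G9a-Glp label and by 2.76 in Eed. In Dnmt1 epiblast 1 fell and 2 rose. In ExE, 7 fell and 2 rose with the Dnmt1 label, 1 and 2 in G9a-Glp, 2 and 4 with the Rnf2 label, and 11 and 3 in Eed (median -0.34). Of the snoRNP proteins and assembly factors, 8 rose and 1 of 15 fell with the G9a-Glp label in epiblast, 6 rose and 1 of 15 fell in Rnf2, 5 rose and 2 of 14 fell in Eed, and 3 rose and 0 of 15 fell in Dnmt1. In ExE, 3 rose and 3 fell with the Dnmt1 label, 0 and 2 in G9a-Glp, 2 and 0 with the Rnf2 label, and 2 and 7 in Eed. Fbl, the box C/D methyltransferase, rose by 2.19 with the G9a-Glp label and by 2.05 in Rnf2. Of 11 nonsense-mediated decay and exon junction factors, 2 rose in each of these 3 epiblast comparisons and 3, 4 and 3 fell, as 2 rose and 3 fell in Dnmt1. In ExE 1 rose in each knockout, and 2 of 13 fell with the Dnmt1 label, 0 of 11 in G9a-Glp, 1 of 11 with the Rnf2 label and 2 of 12 in Eed. Smg5 rose by 1.57 with the G9a-Glp label, 0.70 in Rnf2, 1.66 in Eed and 1.88 in Dnmt1 epiblast, and in ExE by 1.30 in G9a-Glp, 1.24 in Eed and 1.52 with the Dnmt1 label. Targets of p53 rose in epiblast in 4 of 6 tested with the G9a-Glp label, in 6 of 7 in Rnf2 and Eed and in 5 of 7 in Dnmt1, with 0 lower. In ExE 1 of 6 rose with the Dnmt1 label, 6 of 7 in G9a-Glp and in Eed, and 3 of 7 with the Rnf2 label, again with 0 lower. Cdkn1a, a cell cycle inhibitor, rose by 2.16 in Dnmt1 and by 1.94 in Eed epiblast. Against the same controls, the p53 targets of the wild-type CASTxBDF1 embryos had median log2 fold changes of 1.14 over 6 tested genes in epiblast (0 called) and 1.27 over 6 in ExE (1 called, Cdkn1a at 3.11, edgeR adjusted p = 0.0464). Amino acid and stress response genes rose in 3 of 5, 2 of 6 and 2 of 5 with the G9a-Glp label, in Rnf2 and in Eed epiblast, and in 1 of 7 in Dnmt1. In ExE 1 of 6 rose with the Dnmt1 label, in G9a-Glp and with the Rnf2 label, and 3 rose and 1 fell in Eed. Sesn2, a stress-induced gene, was among the genes that rose in all 4 ExE groups (1.41 to 2.55).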

How the data were processed

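Reads of 72 libraries of epiblast and ExE were analysed from 1 table of 30546 RefSeq genes (mm10). Per the submitters' processing notes, reads were handled with STAR 2.5.0 and HTSeq, and libraries were SMART-Seq v4 and Nextera XT, sequenced in pairs of 50 bases per the labels. Per the notes deposited with the table, the authors gave a count of reads over polymorphisms (not normalized), an allelic ratio (the CAST fraction minus 0.5) and a score (-log10 of a binomial p). From the values, the score is positive toward CAST and 0 under 10 reads. Strand use and overlapping rows are not stated. Allele reads were rebuilt from count, ratio and score, and 712257 of 714983 scored values (99.6%) matched within 0.001. For the rest, the ratio gave the reads. A count covers only the variable sites, so levels of different genes are not comparable per length.

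Levels were tested with edgeR 4.0.16 (quasi-likelihood, TMM, filterByExpr) between the libraries of the 2 groups compared, and shares with 1 column per library and allele, a library term, and a minimum of 10 reads for a gene in 3 or more libraries on each side. Tests were two-sided, with Benjamini-Hochberg adjustment over all genes and a threshold of 0.05. Members and lists were chosen with earlier results of these data known. Named genes are the members, the targeted genes, the 3 genes most like each member, and up to 2 genes a list and direction with the largest called change. One gene that this rule picks is not reported here. Correlations used 100000 permutations and a pseudocount of 1 CPM. With Gas5 left out, 15 pairs were tested. Replicates are separate embryos. Scripts were tested on simulated data. R 4.3.3, limma 3.58.1 and DESeq2 1.42.0 were used. Alternatives were other scalings, filters, tools, covariates, controls, pseudocounts and each library left out. The interaction between tissue and knockout, 2 sets of left-out libraries and the values without 3 Eed embryos were added after the data were seen.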

Additional observations from a re-analysis of the deposited data

Results flagged for a closer look

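Of 120 sets of 4 to 10 libraries, 16 (13.3%) had a value standing apart by Dixon's criterion, where chance gives about 1 in 20. Wild-type BDF1xCAST embryo 8 stood high for Snhg3 in ExE (537 CPM, next 331 CPM), for Snhg6 in epiblast (261 CPM, next 117 CPM) and for Snhg8 in epiblast (182 CPM, next 113 CPM).

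CASTxBDF1 embryo 2 stood low in the BDF1 share of Snhg3 in ExE (33.4%, next 45.9%) and in epiblast (37.3%, next 51.4%). Embryo 5 of the ExE libraries labelled Rnf2 stood low in the share of Snhg3 (41.8%, next 49.6%) and of Snhg12 (43.1%, next 55.0%) and high in Snhg5 (607 CPM, next 452 CPM).

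In Rnf2 epiblast, embryo 8 was high in the share of Snhg3 (59.0%, next 53.6%) and low in Snhg5 (332 CPM, next 624 CPM), and embryo 6 was high in Snhg8 (162 CPM, next 80.1 CPM). Snhg6 stood high in Eed ExE embryo 10 (93.3 CPM, next 34.2 CPM), in the epiblast of embryo 4 labelled G9a-Glp (37.9 CPM, next 14.5 CPM) and in embryo 7 of the ExE labelled Rnf2 (46.9 CPM, next 20.9 CPM). Snhg8 stood high in the epiblast of embryo 3 labelled G9a-Glp (132 CPM, next 74.9 CPM), and the BDF1 share of Snhg1 stood low in Eed epiblast embryo 8 (78.9%, next 90.0%).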

How the results depend on the processing

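No called value changed its sign. The calls of Snhg3 in the G9a-Glp, Rnf2 and Eed epiblasts and in G9a-Glp and Eed ExE, and those of the Snhg5 share in the same 3 epiblasts, passed under every alternative run. Counts of called host genes moved as follows, and the cause was not tested except where a library was left out. With the library total as the only scaling, or with all groups in 1 fit, Eed epiblast had 1 called level instead of 2 (Snhg8 lost). G9a-Glp ExE had 3 called levels instead of 2 (Snhg8 added) with DESeq2, without a filter, with sex as a covariate and with all groups in 1 fit. Scaling by the total moved the median of all genes by up to 0.23 and took the lower calls in Eed epiblast from 51.2% to 27.9%, with 50.4% to 28.4% in Dnmt1 epiblast, 53.8% to 27.9% in Dnmt1 ExE and 44.4% to 26.5% in Eed ExE. With limma on log ratios, 0 shares were called in G9a-Glp ExE and in Eed ExE, and 0 parent terms in ExE. Without the 2 wild-type epiblasts richest in streak markers, 1 level was called in Dnmt1 epiblast and 1 in Eed epiblast.

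Replicate numbers of different groups do not pair embryos, and numbers did not deviate together. With the replicate block, 2 levels were called with the Dnmt1 label in ExE (Snhg8 added, 0.68) and 1 in G9a-Glp ExE (Snhg12 lost, adjusted p = 0.0764). Of all genes, 1169 levels passed in Rnf2 epiblast with the block against 3150 without. The embryo block in the tissue comparison changed only the call of Snhg6.

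Leaving out each library in turn gave 0 to 1 called levels in Dnmt1 epiblast (1 without wild-type embryo 8), 1 to 2 in G9a-Glp epiblast (2 without wild-type embryo 2 or G9a-Glp embryo 3), 1 to 2 in Rnf2 epiblast (2 without wild-type embryo 8 or Rnf2 embryo 6), 1 to 2 in Eed epiblast (1 without wild-type embryo 8) and 1 to 3 in G9a-Glp ExE (3 without wild-type embryo 1, 3 or 4 or G9a-Glp embryo 7). Without Eed embryo 7, Snhg5 passed in Eed ExE (-0.39). Counts over all genes moved by over 1.5 times as follows. With limma, called shares went from 65 to 27, 156 to 53, 64 to 35 and 96 to 30 in Dnmt1, G9a-Glp, Rnf2 and Eed epiblast, from 66 to 14, 96 to 37, 83 to 17 and 237 to 154 in ExE, and from 513 to 333 between tissues. The block took levels from 2113 to 563 in Rnf2 ExE and from 3623 to 1890 in Eed epiblast, shares from 64 to 20 and 96 to 42 in Rnf2 and Eed epiblast and from 83 to 23 in Rnf2 ExE, and differences between tissues from 774 to 364 (Rnf2, level) and 0 to 7 (Dnmt1, share). With all groups in 1 fit, levels went from 1428 to 2284 in Dnmt1 epiblast and from 1398 to 2237 in G9a-Glp ExE. Between crosses, DESeq2 called 22 against 1 in epiblast and 252 against 101 in ExE, no filter gave 22 in epiblast, and the library total or sex as a covariate gave 0. Without a filter 8651 levels differed between tissues, against 5296. Depth limits Snhg1 most, with the lowest median of reads in every group, and then Snhg6 or Snhg12 by group.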
